A study of Glycyrrhiza uralensis with 12 samples.

Results

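The genes-encoding hexokinase (HK), phosphofructokinase (PFK), the E1 beta subunit of pyruvate dehydrogenase (pdhB) and dihydrolipoamide dehydrogenase (pdhD) were followed in *Glycyrrhiza uralensis* (licorice) seedlings under 4 treatments. They are the 4 genes that the study names in this way, taken by identifier from a table of 29436 genes. All 4 had reads in every library and all 4 passed the filter on low values in every comparison. The S + G2 seedlings received 75 mM NaCl and the endophyte *Bacillus cereus* G2, the S seedlings received 75 mM NaCl alone, the CK + G2 seedlings received G2 in distilled water, and the CK seedlings received distilled water only. Salt was present from sowing onward, G2 was given after 35 days at 100000000 cfu/ml, and all plants were collected 10 days later, at 45 days. All groups came from seed of wild plants and grew in sterilized sand without nutrients. Each treatment had 3 libraries of full-length cDNA, made from ground seedlings that had been grouped by weight. How many plants stood behind a library was not given in the sources used here, so p-values measure the spread between these libraries. The files name no gene functions and the labels name no organ, so the tissue was not checked against markers. Fewer cells of a type and less RNA per cell cannot be told apart in whole seedlings.

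Glycolysis, also called the Embden-Meyerhof-Parnas (EMP) pathway, splits glucose into pyruvate, and the pyruvate dehydrogenase complex turns pyruvate into acetyl-CoA for the tricarboxylic acid (TCA) cycle. HK adds a phosphate to glucose and other hexoses at the entry of the pathway, and plant hexokinases also take part in sugar sensing. PFK phosphorylates fructose 6-phosphate, a committed step of glycolysis. In the pyruvate dehydrogenase complex, pdhB is the beta subunit of E1, which decarboxylates pyruvate, and pdhD is E3, the flavoprotein that reoxidizes the lipoamide of E2 and serves several other complexes too.

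Each gene can be recognized by the primer pair that the study designed for its PCR assays. These 8 primers are shown because they are the sequences by which the 4 genes were measured a second time on the same RNA, and capitals mark the last 5 bases at the 3′ end, where extension starts. All are written 5′ to 3′.
HK forward: ctcgcatctgaaggTGGCA
HK reverse: acacgaaggacacggaaGTTTG
PFK forward: cagaggaagtgtatgcttgTGTTG
PFK reverse: cctctattccgagaactcTGTGC
pdhB forward: cctgcgtgaaggtttGGAAG
pdhB reverse: tgtgaaggcgttctcaGCAAT
pdhD forward: ctcaaccgccacaatcAACAG
pdhD reverse: ttcccgcatacgaccaCTAAC
The primers were 19 to 24 bases long, with a GC content between 45.8% for the PFK forward primer and 57.9% for the HK forward primer. Their places on the transcripts were not looked up here.

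In the deposited annotation each of the 4 genes had 1 mRNA, on a scaffold of its own, so none of them were neighbours. HK (Glyur000324s00015431) lay on the minus strand of Scaffold00324 at 39255 to 44228 and had 9 exons. PFK (Glyur000219s00011582) lay on the minus strand of Scaffold00219 at 149605 to 153662 and had 12 exons. The pdhB gene (Glyur000278s00017282) lay on the minus strand of Scaffold00278 at 82310 to 85905, with 4 exons and most of its coding sequence in the last of them. The pdhD gene (Glyur000082s00007586) lay on the plus strand of Scaffold00082 at 200315 to 206786 and had 15 exons. The mRNAs were of similar length, between 1993 bases for pdhB and 2147 bases for HK, and coded for 501 residues in HK, 490 in PFK, 406 in pdhB and 535 in pdhD. At their 3′ ends, PFK and pdhB overlapped a gene on the other strand, by 608 bases for PFK and 1424 bases for pdhB. Whether reads were counted by strand was not given in the sources used here, so the values of PFK and pdhB may hold reads of these neighbours. The neighbour of PFK (Glyur000219s00011581) had 5.41 to 14.4 CPM (reads per 1000000 mapped reads) over the 12 libraries, and the neighbour of pdhB (Glyur000278s00017281) is not listed in the gene table.

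**Figure D1:**
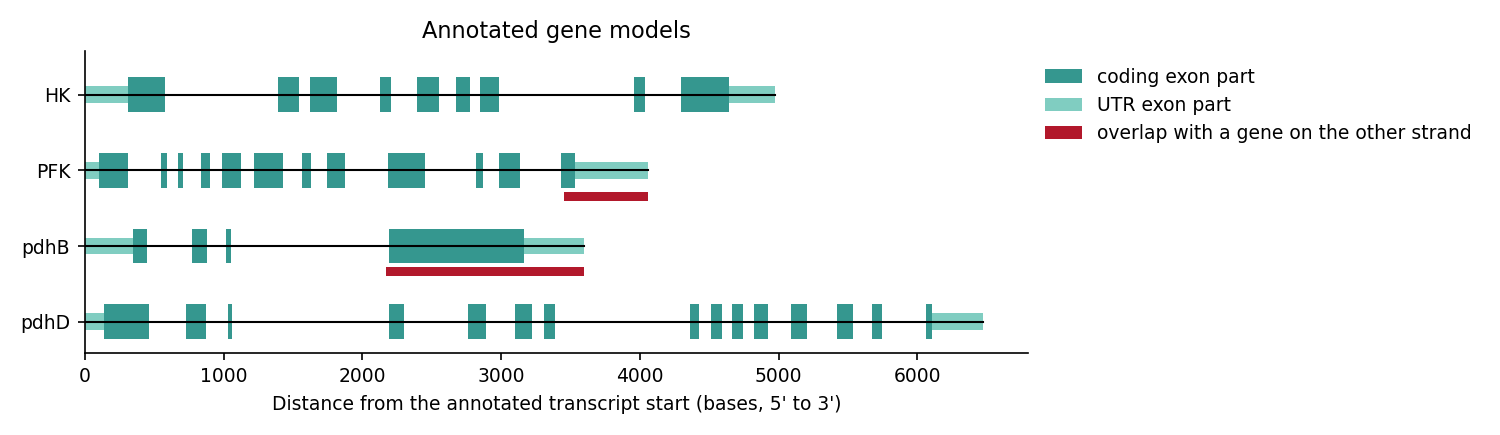
Annotated gene models of HK, PFK, pdhB and pdhD against the distance from the transcript start (bases), with tall boxes for coding parts, low boxes for UTRs and red bars for the overlap with a gene on the other strand. The red bars cover the 3′ ends of PFK (608 bases) and pdhB (1424 bases), and HK and pdhD have none.

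The libraries held between 3303591 and 3929023 reads, so that a single read was worth 0.255 to 0.303 CPM. In 3 libraries (CK replicate 1 and CK + G2 replicates 2 and 3) the TMM factor, which measures how far the bulk of genes departs from the common level, was 1.05 to 1.09, against 0.945 to 1.01 in the other 9. These 3 libraries belong to both groups without salt. They were set apart with earlier results of these data known, and values without them are given beside the results.

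CK had the lowest mean of the 4 treatments for each of the 4 genes. The study listed these genes as higher in S than in CK on these same libraries. The low place of CK is therefore not independent of that listing. Above CK, no gene separated the other 3 treatments from one another, since neighbours in the order of means always shared part of their range. HK CK + G2 against CK was the only pair of neighbours in these orders whose libraries did not overlap.

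HK had 32.7, 48.8 and 28.2 CPM in the S + G2 libraries, 30.2, 32.3 and 33.1 CPM in the S libraries, 27.6, 31.6 and 30.8 CPM in the CK + G2 libraries, and 24.2, 21.0 and 20.6 CPM in the CK libraries (replicates 1, 2 and 3 in each). All 9 libraries with salt, G2 or both lay above all CK libraries, and S + G2 replicate 2 stood above every other library, with an exact Poisson interval for its 185 reads of 42.0 to 56.4 CPM. The means were 36.6 ± 10.8 CPM in S + G2, 31.9 ± 1.52 CPM in S, 30.0 ± 2.10 CPM in CK + G2 and 21.9 ± 1.97 CPM in CK (SD, n = 3 each). The spread of the S + G2 libraries was 3.49 times what read counting alone gives, and that of the S libraries 0.514 times.

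PFK was read least often, with 12 to 55 reads in a library. It had 7.46, 5.01 and 9.83 CPM in the S + G2 libraries, 12.2, 14.1 and 6.62 CPM in the S libraries, 8.20, 7.10 and 15.4 CPM in the CK + G2 libraries, and 5.66, 3.88 and 3.63 CPM in the CK libraries. The CK libraries were low together, while S replicate 3 and CK + G2 replicate 3 stood apart from the others of their treatment in opposite directions. The means were 7.43 ± 2.41 CPM in S + G2, 11.0 ± 3.87 CPM in S, 10.2 ± 4.52 CPM in CK + G2 and 4.39 ± 1.11 CPM in CK (SD, n = 3 each). At 55 reads, the exact Poisson interval of CK + G2 replicate 3 was 11.6 to 20.1 CPM, which lies above the 7.10 CPM of replicate 2 and the 8.20 CPM of replicate 1. The interval of replicate 1, 5.53 to 11.7 CPM, just overlapped it, and that of replicate 2, 4.68 to 10.3 CPM, did not.

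The pdhB gene had 42.9, 64.9 and 32.3 CPM in the S + G2 libraries, 55.7, 43.6 and 53.4 CPM in the S libraries, 60.2, 60.5 and 35.6 CPM in the CK + G2 libraries, and 36.6, 29.1 and 33.0 CPM in the CK libraries. In each G2 treatment replicate 3 was low and inside the range of CK, whereas all S libraries lay above all CK libraries. The means were 46.7 ± 16.6 CPM in S + G2, 50.9 ± 6.44 CPM in S, 52.1 ± 14.3 CPM in CK + G2 and 32.9 ± 3.74 CPM in CK (SD, n = 3 each). The spread was 4.74 times the counting error in S + G2 and 3.80 times in CK + G2.

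The pdhD gene had 11.4, 20.8 and 27.2 CPM in the S + G2 libraries, 31.0, 25.3 and 28.3 CPM in the S libraries, 21.6, 31.0 and 30.0 CPM in the CK + G2 libraries, and 23.9, 16.1 and 11.2 CPM in the CK libraries. S + G2 and CK spanned nearly the same range, and CK replicate 1 was the high library of its treatment. The means were 19.8 ± 7.91 CPM in S + G2, 28.2 ± 2.86 CPM in S, 27.5 ± 5.17 CPM in CK + G2 and 17.1 ± 6.43 CPM in CK (SD, n = 3 each).

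**Figure D2:**
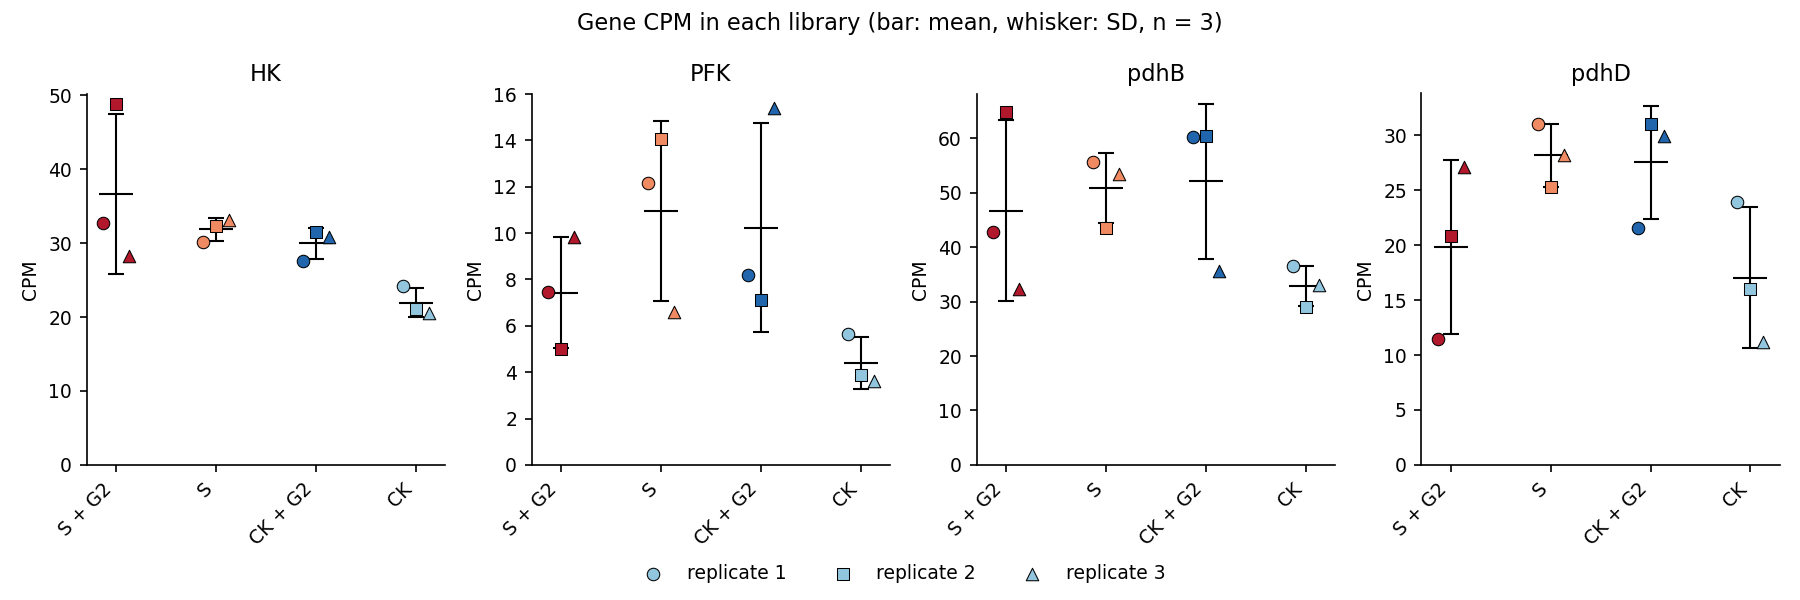
CPM of HK, PFK, pdhB and pdhD in each library (marker shape: replicate number), with the mean (horizontal bar) and SD (whisker, n = 3) of each treatment. CK has the lowest mean in every panel, which is not independent of the listing of these genes as higher in S than in CK. The S + G2 libraries are widely spread, as in HK, where they run between 28.2 and 48.8 CPM.

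The salt effect in seedlings that carried G2 was read from S + G2 and CK + G2. These 6 libraries took no part in the comparison of S and CK by which the study listed the 4 genes. Among seedlings with G2, HK was higher and the other 3 genes were lower with salt than without it, but all 4 of the 95% intervals included 0. The log2 fold changes on the scale of log2(CPM + 1), with their SE, were 0.24 ± 0.22 for HK, −0.38 ± 0.34 for PFK, −0.17 ± 0.29 for pdhB and −0.52 ± 0.30 for pdhD. The adjusted p-values were 0.589 to 0.870 with limma. Of the 4 genes 0 passed an adjusted p under 0.05 and 0 an unadjusted p under 0.05 in limma. Of the 21664 genes tested 0.0369% passed the adjusted threshold, and 2171 had an unadjusted p under 0.05. With edgeR and DESeq2 on the recovered reads, 0 of the 4 passed the adjusted threshold either, in this or any other comparison. No gene of the 4 had treatments without overlap, against 15.1% of all genes in either direction, and none met the criterion read from the study (unadjusted p under 0.05 and at least a 1.5-fold change), against 7.77% of all genes. The 95% intervals ran between −0.26 and 0.74 for HK, −1.15 and 0.38 for PFK, −0.84 and 0.50 for pdhB, and −1.21 and 0.17 for pdhD, so more than a doubling lies outside all 4 intervals and a halving outside those of HK and pdhB. The median of the 4 genes was −0.28, and the median of all genes −0.09. When S + G2 replicate 3 was left out, pdhD was at −0.77 (unadjusted p 0.0298 and adjusted p 0.353 in limma), and the other single omissions left all 4 genes above an unadjusted 0.05. Without the 3 libraries set apart the changes were 0.36, −0.17, −0.42 and −0.20 for HK, PFK, pdhB and pdhD, with a single CK + G2 library that is assumed to vary like the others.

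For the G2 effect without salt, all 4 genes were higher in CK + G2 than in CK, by 1.35-fold for HK, 2.01-fold for PFK, 1.53-fold for pdhB and 1.63-fold for pdhD. The log2 fold changes were 0.44 ± 0.17 for HK, 1.01 ± 0.32 for PFK, 0.61 ± 0.23 for pdhB and 0.70 ± 0.27 for pdhD (SE). None of them passed the adjustment over 21675 genes, with adjusted p-values of 0.571 to 0.744 in limma, where 0.0600% of all genes passed. By the criterion of an unadjusted p under 0.05 and at least 1.5-fold, 3 of the 4 (PFK, pdhB and pdhD) were higher, against 2.08% of all genes in that direction. HK had an unadjusted p under 0.05 with a smaller fold, so that all 4 were under 0.05 before adjustment. Of the 21675 genes, 1307 had an unadjusted p under 0.05 in limma, in either direction. The libraries did not overlap for HK and PFK, 2 of the 4, against 5.18% of all genes that were higher without overlap. The median of the 4 genes was 0.66 and that of all genes 0.02. CK is also the reference of the comparison by which the 4 genes were listed, so both comparisons share these libraries and the higher values are not independent of the listing. PFK kept an unadjusted p under 0.05 when any 1 of the 6 libraries was left out (0.00622 to 0.0468), with a fold change on the log2 scale between 0.70 (without CK + G2 replicate 3) and 1.21. The unadjusted p of HK was 0.0834 without CK replicate 2, 0.0829 without CK replicate 3, 0.0825 without CK + G2 replicate 2 and 0.0730 without CK + G2 replicate 3, and 0.0644 in DESeq2 with all libraries. The unadjusted p of pdhB was 0.0804 without CK replicate 2, 0.0682 without CK + G2 replicate 1 and 0.0833 without CK + G2 replicate 2. That of pdhD was 0.066 without CK replicate 2, 0.119 without CK replicate 3, 0.0832 without CK + G2 replicate 2 and 0.0814 without CK + G2 replicate 3. Without the 3 libraries set apart, the changes were 0.39 for HK, 0.95 for PFK, 0.94 for pdhB and 0.65 for pdhD, and again 1 CK + G2 library was left. Their unadjusted p-values were then 0.215 for HK, 0.0681 for PFK, 0.0212 for pdhB and 0.154 for pdhD, so HK, PFK and pdhD were no longer under 0.05.

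For the G2 effect under salt, PFK, pdhB and pdhD were lower and HK was higher in S + G2 than in S, and the groups overlapped in all 4. The log2 fold changes were 0.16 ± 0.21 for HK, −0.49 ± 0.33 for PFK, −0.17 ± 0.24 for pdhB and −0.56 ± 0.28 for pdhD (SE), with adjusted p-values of 0.851 to 0.954 in limma. Of the 4 genes 0 passed, and 0 had an unadjusted p under 0.05. Of 21518 genes 0.00465% passed the adjusted threshold in limma, and 1266 had an unadjusted p under 0.05. None met the criterion, which 3.84% of all genes met in either direction, and none had treatments without overlap, which 11.5% of all genes had. The intervals of the change were −0.32 to 0.63 for HK, −1.23 to 0.26 for PFK, −0.72 to 0.38 for pdhB and −1.21 to 0.08 for pdhD. The study's qRT-PCR on the same RNA reported all 4 genes as higher with salt, and as lower with G2 under salt. Here HK had the other sign in S + G2 vs. S, and the intervals of all 4 genes included 0. The median was −0.33 for the 4 genes and −0.02 for all genes. The sign rested on single libraries for HK, at −0.065 without S + G2 replicate 2, and for pdhB, at 0.059 without S + G2 replicate 3. The same omission gave pdhB 0.059 in S + G2 against CK + G2. In S + G2 vs. S the unadjusted p in limma was 0.0132 for pdhD without S + G2 replicate 3 and 0.0351 for PFK without S replicate 3. Their adjusted p-values were then 0.436 and 0.995, and the other single omissions left all 4 genes above an unadjusted 0.05.

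For the salt effect in seedlings without G2, the study lists the 4 genes by S against CK on these same libraries, so the values are a description only. S libraries lay above CK libraries without overlap for 4 of the 4 genes, where 7.58% of all genes were higher without overlap. The log2 fold changes were 0.52 ± 0.15 for HK, 1.11 ± 0.30 for PFK, 0.61 ± 0.16 for pdhB and 0.75 ± 0.25 for pdhD (SE). By the criterion 3 of the 4 were higher and HK, at 1.43-fold, fell short of the fold on the log2(CPM + 1) scale, and 3.69% of all genes were higher by it. On the recovered reads HK met the criterion, with 0.60 on the log2 scale in both edgeR (unadjusted p 0.00256) and DESeq2 (unadjusted p 0.0125). In limma 0 of the 4 passed an adjusted p under 0.05, against 1.94% of the 21543 genes. An unadjusted p under 0.05 was reached by 4 of the 4, and by 3300 of the 21543 genes in either direction. The median of the 4 genes was 0.68 and that of all genes −0.05. Without the 3 libraries set apart the changes were 0.59, 1.27, 0.69 and 1.01 for HK, PFK, pdhB and pdhD.

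The interaction of salt and G2 asks whether the salt effect with G2 differs from the salt effect without G2, and it holds all 12 libraries. It subtracts S vs. CK, the comparison by which the 4 genes were listed as higher, so a negative value is not independent of the listing. It was negative for all 4 genes, meaning that the difference made by salt was smaller or of the other sign when G2 was present. The differences of log2 fold changes were −1.49 ± 0.48 for PFK, −1.27 ± 0.42 for pdhD, −0.79 ± 0.35 for pdhB and −0.28 ± 0.26 for HK (SE). The unadjusted p-values were 0.00787, 0.0104, 0.0446 and 0.305 in that order, and the adjusted p-values 0.603, 0.637, 0.732 and 0.908 with limma over 22751 genes, so that 0 of the 4 passed, and 0.00440% of all genes did. With an unadjusted p under 0.05 and a ratio of folds of at least 1.5, 3 of the 4 were lower, against 3.17% of all genes. The median was −1.03 for the 4 genes and −0.03 for all genes. PFK and pdhD kept an unadjusted p under 0.05 when any 1 of the 12 libraries was left out, up to 0.0238 for PFK and 0.0313 for pdhD, but pdhD had 0.0874 on its annotated transcript alone. The pdhB value lost it in limma without CK + G2 replicate 1, where its unadjusted p was 0.0993, or S + G2 replicate 3, where it was 0.122, and likewise without CK replicates 2 and 3, CK + G2 replicate 2, S replicates 1 and 3, or S + G2 replicate 1. With all 12 libraries the unadjusted p of pdhB was 0.0733 in edgeR, 0.0815 in DESeq2, 0.0674 with TMM scaling, 0.0821 on the annotated transcript and 0.0721 on the assembled one, so that 2 of the 4 genes, PFK and pdhD, were under 0.05 with edgeR, DESeq2 and TMM scaling. Without the 3 libraries set apart the differences were −0.23 for HK, −1.44 for PFK, −1.11 for pdhB and −1.21 for pdhD.

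**Figure D3:**
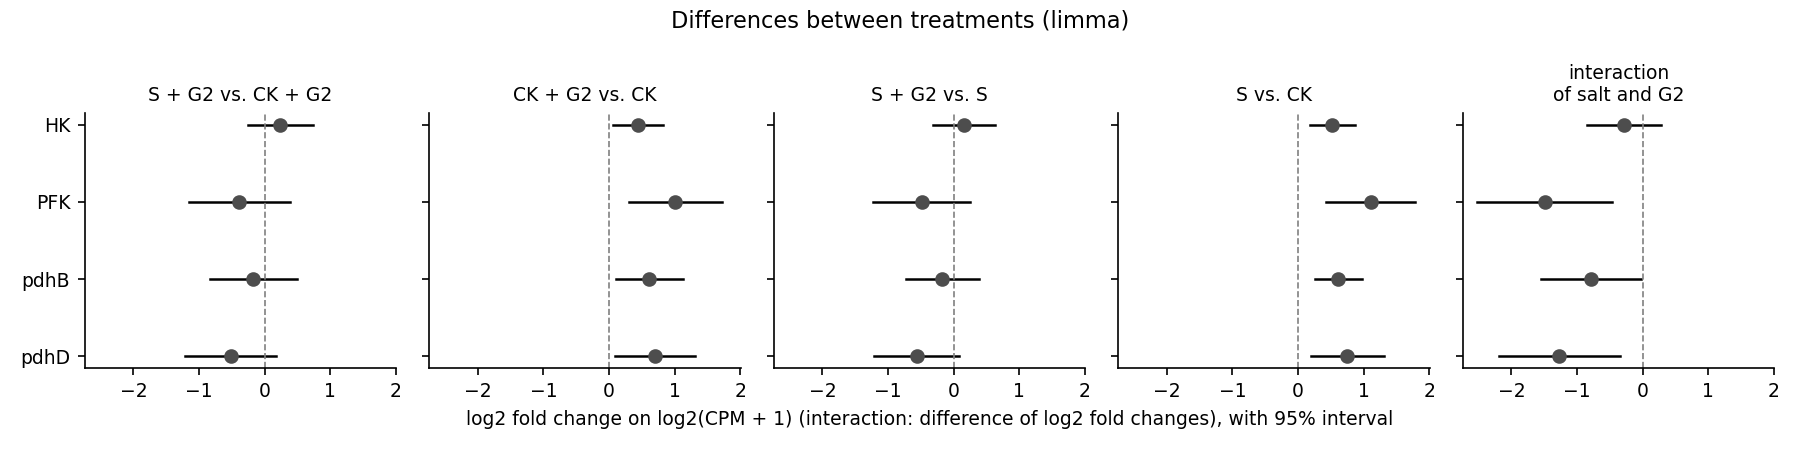
Log2 fold changes on log2(CPM + 1), with 95% intervals, of the 4 genes in each comparison, and in the last panel the difference between the salt effects with and without G2. All 4 points lie right of 0 in CK + G2 vs. CK and in S vs. CK, and left of 0 in the interaction, where PFK is at −1.49.

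The other genes that the study lists by identifier for the EMP-TCA cycle were a pair of pyruvate decarboxylase genes (PDC), an alcohol dehydrogenase (ADH) and an aldehyde dehydrogenase (ALDH). PDC turns pyruvate into acetaldehyde, ADH reduces acetaldehyde to ethanol, and ALDH oxidizes aldehydes to acids. At an adjusted p under 0.05, 0 of these 4 passed in S + G2 vs. CK + G2, CK + G2 vs. CK, S + G2 vs. S and the interaction, where 0.00440% to 0.0600% of all genes passed. In S vs. CK, the comparison from which they too were listed, 2 of 4 rose in limma, and 1.94% of all genes passed in either direction. The pair that rose were PDC 2 (Glyur003994s00042985), by 1.52 on the log2 scale (adjusted p = 0.0303 in limma), and ADH (Glyur000038s00004477), by 1.01 (adjusted p = 0.0226 in limma). PDC 2 had 4.26, 5.28 and 5.18 CPM in the S + G2 libraries, 15.7, 12.1 and 10.2 CPM in the S libraries, 4.38, 9.21 and 8.13 CPM in the CK + G2 libraries, and 3.86, 5.26 and 2.42 CPM in the CK libraries. In PDC 2 the S libraries were thus all above every other library, and its interaction was −1.95 (unadjusted p = 0.000434 and adjusted p = 0.299 in limma). The study lists PDC 2 as higher in S vs. CK and as lower in S + G2 vs. S on these same libraries. Its high S values and negative interaction are therefore not independent of that listing. ADH had 245, 224 and 158 CPM in the S + G2 libraries against 115, 56.3 and 53.8 CPM in the CK + G2 libraries, without overlap, which is 1.53 on the log2 scale (adjusted p = 0.276 in limma). HK, PFK, pdhB and pdhD showed no such gap between S + G2 and CK + G2, and neither did PDC 2, the other PDC gene (Glyur000136s00007955) or ALDH. Of all genes, 15.1% had no overlap in this comparison, in either direction. CK had the lowest mean of the treatments for PDC 2, the other PDC gene and ALDH too, and CK + G2 had it for ADH.

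Reads of the 4 genes fell partly on transcripts that the authors assembled from the long reads rather than on the annotated mRNA. An assembled family was paired with a gene where the reads of the gene that were not on its annotated mRNA equalled the reads of the family in all 12 libraries, a pairing found after seeing the data, which took in 96.5% of the 14236 genes with at least 20 such reads. The annotated mRNA held 84.5% of the reads of HK, 82.1% of those of PFK and 62.5% of those of pdhB, with the rest on a single assembled transcript of each gene. For pdhD it was the other way round, with 5.06% of the reads (52 in all) on the annotated mRNA, 93.0% on the assembled transcript ONT.3690.1 and 1.95% on ONT.3690.2. In single libraries the annotated share of pdhD lay between 1.27% and 9.30%. The sequences of the assembled transcripts were not used here, so how they differ from the annotated mRNA was not examined.

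The share on the annotated mRNA was compared between treatments in 16 exact permutation tests (two-sided), in which 3 libraries against 3 cannot give a p below 0.1, and all adjusted p-values were 0.8 or higher. The lowest was reached once, for HK, with 85.5 ± 0.573% in CK + G2 and 80.5 ± 1.27% in CK (SD, n = 3 each, exact p = 0.1), whose libraries did not overlap. The 95% Wilson intervals of these libraries did overlap, at 72.9% to 88.4% in CK replicate 1 and 77.5% to 90.3% in CK + G2 replicate 2. In the same comparison the annotated mRNA of HK was higher by 0.52 on the log2 scale, and its assembled transcript ONT.8611.1 by 0.02 ± 0.26 (SE). For PFK, the assembled transcript ONT.7154.1 had 4, 5 and 22 reads in the CK + G2 libraries (1.09, 1.32 and 6.17 CPM) against 1, 2 and 0 reads in the CK libraries, where a count of 0 allows up to 0.908 CPM. CK + G2 replicate 3, the library with the most PFK reads, had 33 of its 55 reads on the annotated mRNA, a share of 60.0% (95% Wilson interval 46.8% to 71.9%), and the remaining 11 libraries had 76.0% to 100%. Without salt, ONT.7154.1 was higher with G2 by 1.38 on the log2 scale (adjusted p = 0.634 in limma), and the annotated mRNA by 0.71. The assembled transcript ONT.8077.3 of pdhB had 12.2, 26.4 and 10.6 CPM in the S + G2 libraries, 21.2, 17.7 and 25.7 CPM in the S libraries, 23.0, 23.7 and 9.25 CPM in the CK + G2 libraries, and 11.6, 11.6 and 12.1 CPM in the CK libraries. It was low in the same S + G2 and CK + G2 libraries, replicate 3 of each, in which the whole gene was low. The interaction was negative on both kinds of transcript, at −1.18 on the annotated mRNA and −1.71 on the assembled transcript for PFK, −0.62 and −0.98 for pdhB, −0.91 and −1.23 for pdhD, and −0.31 and −0.08 for HK. Some of these values rest on few reads, with 1 to 3 on the annotated mRNA of pdhD and 0 to 2 on ONT.7154.1 in the CK libraries. The assembled value of HK had an SE of 0.37.

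**Figure D4:**
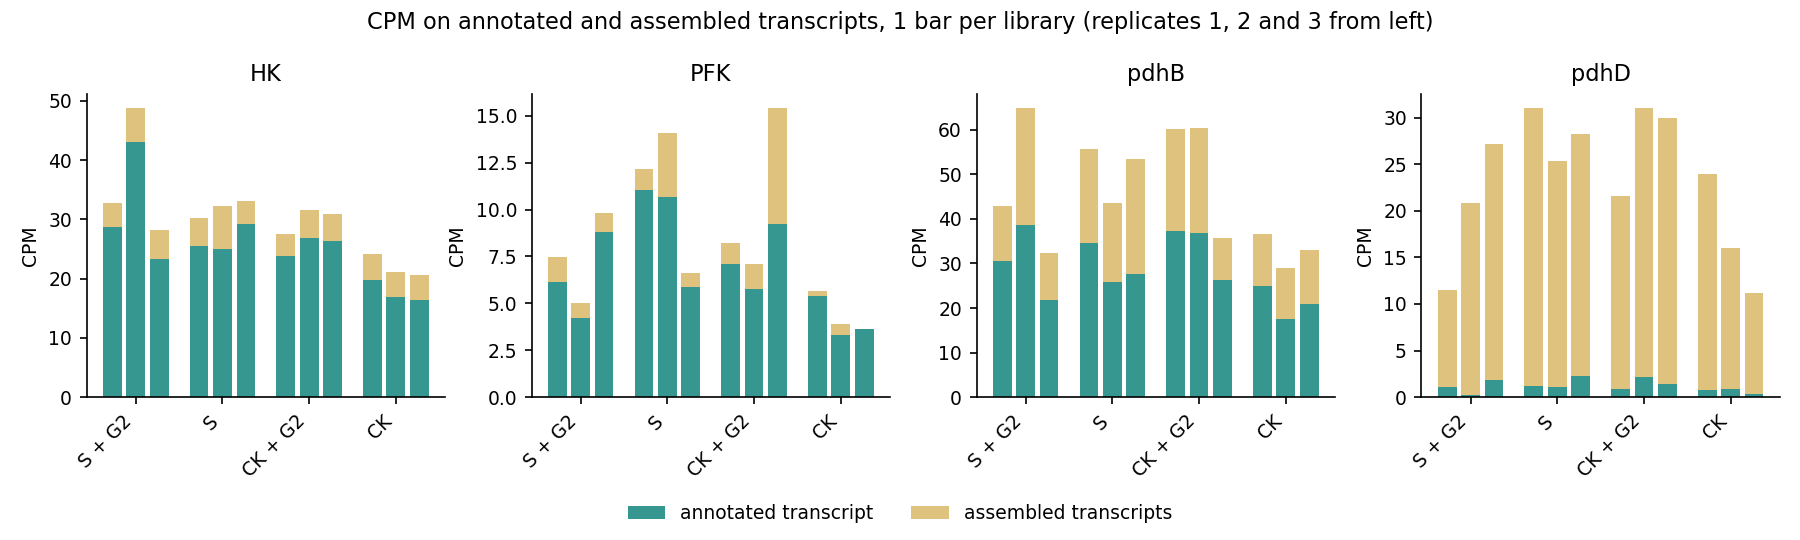
CPM of each gene in each library (1 bar per library, replicates 1, 2 and 3 from the left in each treatment), split into reads on the annotated mRNA and on assembled transcripts. In pdhD nearly all of each bar is assembled transcript (annotated 5.06% of reads overall), while in HK the annotated mRNA makes up 84.5%.

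How the 4 genes varied together within treatments was measured from the deviations of each library from its treatment mean, over 12 libraries and 6 pairs of genes. PFK and pdhB went in opposite directions, with Pearson r = −0.72 (exact permutation p = 0.0424, adjusted p = 0.255) and Spearman rho = −0.73 (exact permutation p = 0.0471, adjusted p = 0.282), so the relation did not pass the adjustment over 6 pairs. Without CK + G2 replicate 3 and S replicate 3, the libraries farthest from the median of PFK, r was −0.69. For HK and pdhB r was 0.63 (exact permutation p = 0.201) and rested on S + G2 replicates 2 and 3, without which it was −0.02. HK and pdhD had r = 0.18, and 0.81 without the same pair of libraries. In the remaining pairs r was −0.36 for HK and PFK, 0.28 for PFK and pdhD, and −0.07 for pdhB and pdhD, the pair from 1 complex, and the adjusted p-values of r over all 6 pairs were 0.255 to 0.893 by exact permutation.

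**Figure D5:**
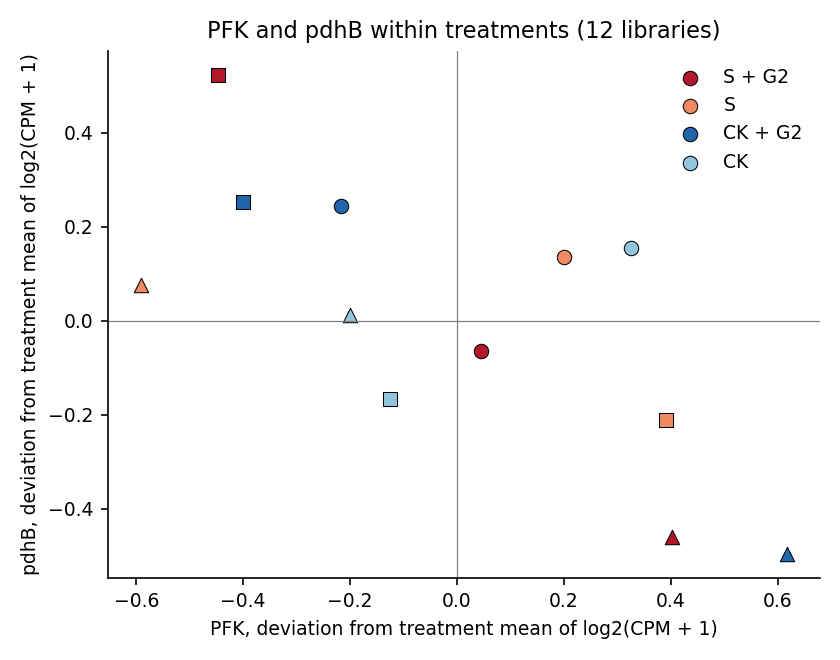
Deviation of pdhB against that of PFK from the treatment mean of log2(CPM + 1) in 12 libraries (colour: treatment; circles, squares and triangles: replicates 1, 2 and 3). The points run from the upper left, with S + G2 replicate 2, to the lower right, with CK + G2 replicate 3 (r = −0.72).

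Over the 12 libraries, the genes whose log2(CPM + 1) most resembled each of the 4, among 15929 genes with a mean of at least 5 CPM, are given as a description. The gene most like HK was Glyur000186s00009860 (r = 0.93), that most like PFK was Glyur000003s00001212 (r = 0.86), that most like pdhB was Glyur002092s00036814 (r = 0.88), and that most like pdhD was Glyur001297s00038236 (r = 0.94). All of these values come from the same libraries and share their depth and treatments, and none of the 4 was the closest gene of another.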

How the data were processed

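Full-length cDNA of 12 libraries was sequenced by the Oxford Nanopore protocol. The labels name a nanopore instrument and the paper's methods an Illumina one. The authors discarded short, low-quality and ribosomal reads, mapped full-length reads to a reference transcriptome, and deposited CPM, in which read numbers are divided by the total mapped in a library and multiplied by 1000000. The submitters' processing notes name minimap2, without a version, and no genome release was found in the labels, methods or headers. Coordinates are those of the deposited annotation's scaffolds.

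The deposited CPM were converted to reads (100% of values whole within 0.01), with 3303591 to 3929023 reads per library. A count of 0 allows up to 3 reads (0.764 to 0.908 CPM), and intervals cover counting error only. Because CPM are not raw counts, limma 3.58.1 (trend, R 4.3.3) was applied to log2(CPM + 1), which understates changes of genes with few reads, keeping genes that reached 1 CPM in 3 or more of the fitted libraries. The plan held a count test in case the table had counts. Each comparison used its 6 libraries and the interaction all 12, with Benjamini-Hochberg adjustment over all genes. The study's methods name DESeq with a p-value under 0.05 and a fold change of at least 1.5, and that criterion was read as an unadjusted p. Samples were grouped by their titles. Alternatives were edgeR 4.0.16 and DESeq2 1.42.0 on the recovered reads, TMM scaling, a pseudocount of 0.5, no filter, all 12 libraries, a replicate block, each library left out, and annotated transcripts alone; leaving out 3 libraries had been foreseen for libraries that stand apart, and assembled transcripts were added after seeing the data. Tests were tried on simulated data. Named are the 4 genes, the other EMP-TCA genes listed by the study, the most similar gene of each of the 4, and overlapping genes. The genes, lists and tests were chosen with earlier results of these data known. Figures were drawn with matplotlib 3.10.9.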

Additional observations from a re-analysis of the deposited data

Results flagged for a closer look

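The interaction of salt and G2 was flagged for 3 of the 4 genes, because its unadjusted p in limma was under 0.05. The same held for 1530 of the 22751 genes tested, in either direction. The interaction subtracts S vs. CK, the comparison by which the 4 genes were listed as higher on these same libraries, so its negative sign is not independent of that listing. The difference of log2 fold changes was −1.49 for PFK, −1.27 for pdhD and −0.79 for pdhB, with adjusted p-values of 0.603, 0.637 and 0.732 in limma, so none passed the adjustment over all genes. The unadjusted p of pdhB was 0.0446 in limma and 0.0733 in edgeR. Groups of 3 libraries are too small for a test of single outlying libraries.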

How the results depend on the processing

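Over the 4 genes and 5 comparisons, 338 values were computed under alternatives, of which 333 kept their direction and 0 had an adjusted p under 0.05 (lowest 0.0531, pdhD in S vs. CK without CK replicate 1). Values with the replicate block, no filter or all 12 libraries repeat the change of the main fit and could not reverse. The same holds for S + G2 vs. S without the 3 libraries set apart. The 5 that changed sign were HK in S + G2 vs. S, at −0.056 on its assembled transcript and at −0.065 without S + G2 replicate 2 (range over single omissions −0.065 to 0.32), pdhB in S + G2 vs. S, at 0.017 on its annotated transcript and 0.059 without S + G2 replicate 3 (range −0.43 to 0.059), and pdhB in S + G2 vs. CK + G2, at 0.059 without S + G2 replicate 3 (range −0.43 to 0.059). Their cause was not tested. At an adjusted p under 0.05, the genes called in S + G2 vs. CK + G2 numbered 8, against 3 in edgeR, 115 in DESeq2, 3 with TMM scaling, 5 with a pseudocount of 0.5, 5 with all 12 libraries, 2 with the replicate block and 0 without the 3 libraries set apart, and 1 to 40 over single omissions. In CK + G2 vs. CK they numbered 13, against 0 in edgeR, 98 in DESeq2, 5 with TMM scaling, 5 with no filter and 1 without the 3 libraries, and 0 to 32 over single omissions. In S + G2 vs. S the count was 1, against 33 in DESeq2 and 0 with all 12 libraries and with the replicate block, and 0 to 9 over single omissions. In S vs. CK it was 418, against 671 in DESeq2, 221 with all 12 libraries and 114 without the 3 libraries, and 167 to 336 over single omissions. For the interaction it was 1, against 50 in DESeq2 and 0 without the 3 libraries, and 0 to 10 over single omissions. Over all genes, same-numbered libraries of different treatments did not deviate together (r −0.201 to 0.109 over 18 pairs, 1 of them over 0.1). Whether they shared more than a number was not given in the sources used here. With the replicate number as a block the changes stay the same, since every treatment holds each number, and only the errors can move. With it 0 of the 4 genes were called, and the unadjusted p of HK in CK + G2 vs. CK was 0.0658, against 0.0286 without the block in limma. In CK + G2 vs. CK the block raised the SE of all 4 genes. In S + G2 vs. CK + G2 the SE with the block was 0.21 for pdhB, 0.26 for PFK and 0.23 for pdhD. Without the block these were 0.29, 0.34 and 0.30, and HK had 0.22 either way. The unadjusted p of pdhD there was 0.0597 with the block and 0.125 without it in limma. The annotated transcript of pdhD in CK + G2 vs. CK and the assembled transcript of PFK in S vs. CK did not pass the filter on low values and were not fitted. Depth limits PFK most, at 12 to 55 reads in a library.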
